A study of Mus musculus with 8 samples.

Results

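Fn1, Spp1, Postn, Tnc, Thbs1, Thbs2, Sparc, Ctgf and Cyr61, the genes of fibronectin and of 8 matricellular proteins, were followed across the cell classes of B16F10 melanomas, across the states of the melanoma cells and between 2 host genotypes. They were chosen by symbol from the gene tables, 9 of 31053 listed features, and all 9 were found. B16F10 is a mouse melanoma cell line. The 8 tumours, 1 droplet library each, had been grown to the size labelled large, 300 mm3, in mice whose labels give an age of 12 weeks. In 4 hosts Atf4 was intact (Atf4wt/wt, 2 males and 2 females), and in the other 4 it was deleted (Atf4D/D, 1 female and 3 males). Both genotypes carried the tamoxifen-inducible CreERT2 at Rosa26 and received tamoxifen, so that the deletion is not limited to 1 host cell type, while the injected melanoma cells keep Atf4 in both hosts. Replicates are different tumours.

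Matricellular proteins are secreted into the extracellular matrix, where they bind collagens, growth factors and cell-surface receptors such as integrins, and tune how cells attach, migrate and signal rather than bearing load. Fibronectin is a matrix glycoprotein that cells assemble into fibrils, on which collagens and latent growth factors are laid down. In tumours these genes are known from the reactive stroma: activated fibroblasts secrete periostin, tenascin-C, thrombospondins and SPARC, and macrophages are a known source of osteopontin. Ctgf and Cyr61, of the CCN family, are also textbook targets of the YAP and TEAD transcription factors.

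In GRCm38 with the GENCODE annotation, all 9 are protein-coding genes. Fn1 lies at chr1:71585520-71653200 on the minus strand. Spp1, encoding osteopontin, lies at chr5:104435118-104441050 on the plus strand. Postn, encoding periostin, lies at chr3:54361109-54391037 on the plus strand, and Tnc, encoding tenascin-C, at chr4:63959785-64047015 on the minus strand. The thrombospondin genes lie at chr2:118111876-118127133 on the plus strand (Thbs1) and chr17:14665500-14694235 on the minus strand (Thbs2). Sparc, encoding a collagen-binding glycoprotein also called osteonectin, lies at chr11:55394500-55423183 on the minus strand. Ctgf, named Ccn2 in that annotation, lies at chr10:24595442-24598683 on the plus strand, and Cyr61, named Ccn1, at chr3:145646976-145649981 on the minus strand.

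Promoter windows of 250 bases upstream of the start were looked up in a RefSeq table of GRCm38.p6, where 6 of the 9 genes had an entry. The windows are shown for Postn, Tnc and Thbs2, whose transcripts lay mostly in fibroblasts, for Spp1, which fibroblasts and macrophages shared, and for Cyr61, which melanoma cells also carried. Sequences run 5′ to 3′ on the gene's strand. Capitals mark matches, on either strand, to the TATA box letters TATAAA, to GGAATG, the core letters bound by TEAD factors, or to TGANTCA, the AP-1 letters.
Postn: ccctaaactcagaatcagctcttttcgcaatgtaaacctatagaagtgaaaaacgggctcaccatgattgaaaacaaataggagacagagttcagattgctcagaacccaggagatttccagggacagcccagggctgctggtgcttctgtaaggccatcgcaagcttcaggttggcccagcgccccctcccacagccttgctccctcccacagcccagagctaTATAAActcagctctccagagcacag
Tnc: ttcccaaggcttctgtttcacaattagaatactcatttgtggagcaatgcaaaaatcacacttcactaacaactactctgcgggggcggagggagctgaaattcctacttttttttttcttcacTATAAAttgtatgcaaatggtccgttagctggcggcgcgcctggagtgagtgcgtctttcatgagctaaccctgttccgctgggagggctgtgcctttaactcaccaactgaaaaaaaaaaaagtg
Thbs2: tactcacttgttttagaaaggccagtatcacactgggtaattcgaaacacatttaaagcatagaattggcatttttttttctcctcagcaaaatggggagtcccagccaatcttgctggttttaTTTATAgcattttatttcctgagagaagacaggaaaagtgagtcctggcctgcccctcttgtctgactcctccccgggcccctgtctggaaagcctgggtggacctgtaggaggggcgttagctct
Spp1: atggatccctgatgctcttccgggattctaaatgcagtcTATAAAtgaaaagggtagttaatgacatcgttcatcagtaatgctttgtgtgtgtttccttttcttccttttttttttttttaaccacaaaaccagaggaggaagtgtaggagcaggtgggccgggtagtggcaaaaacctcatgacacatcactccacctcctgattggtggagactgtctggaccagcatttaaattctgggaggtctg
Cyr61: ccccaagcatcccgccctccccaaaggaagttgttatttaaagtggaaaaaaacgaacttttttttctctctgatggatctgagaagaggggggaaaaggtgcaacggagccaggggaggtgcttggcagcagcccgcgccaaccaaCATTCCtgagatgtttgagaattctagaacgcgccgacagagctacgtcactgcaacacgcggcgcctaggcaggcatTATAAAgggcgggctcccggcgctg

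The windows lie at chr3:54360857-54361106 (Postn, plus strand), chr4:64047016-64047265 (Tnc, minus strand), chr17:14694263-14694512 (Thbs2, minus strand), chr5:104434861-104435110 (Spp1, plus strand) and chr3:145649986-145650235 (Cyr61, minus strand). TATAAA began 26 bases upstream of the window's end in Postn and 25 bases upstream in Cyr61, and the Cyr61 window also held the TEAD core letters, on the other strand. The TATA box letters were further upstream in Tnc, Thbs2 and Spp1. The 6th gene with an entry, Sparc, is not shown, as its window lay 3103 bases from the annotated start. That window held no match to the TATA box, TEAD or AP-1 letters. Among 32851 promoter windows of the same length, 12.4% held the TATA box letters, 12.6% the TEAD core letters and 6.75% the AP-1 letters, of which none of these 5 windows had a match. These matches describe letters, not bound sites.

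The libraries held 37283598 to 74942137 unique molecular identifiers (UMIs, counted transcript molecules), and 28411 barcodes passed the cell filters. The cells were clustered without the 9 genes, so that their own levels did not place a cell in a class, and 28169 cells were used: 23721 melanoma-like, 730 CAF-like (cancer-associated fibroblasts), 441 TAM-like (tumour-associated macrophages), 214 monocyte- or neutrophil-like, 84 dendritic cell-like, 87 T/NK-like, 36 endothelial-like, and 69 immune and 2787 other cells that were not named, the latter with few UMIs. The CAF-like cells came from 10 to 241 cells per tumour, the fewest from Atf4D/D replicate 3. Their 12 fibroblast markers were all detected and summed to 18820 to 51520 CPM per tumour (UMIs scaled to the same total in each sum, with TMM), against 6.32 to 53.9 CPM in melanoma-like cells. All 10 melanoma markers were detected in melanoma-like cells (15370 to 18570 CPM in sum) and all 11 macrophage markers in TAM-like cells (14310 to 49080 CPM). The macrophage markers summed to 15700 to 32210 CPM in monocyte- or neutrophil-like cells, so this sum does not part the 2 classes. The 9 monocyte or neutrophil markers, 3 of them without a UMI there, summed to 2095 to 4421 CPM in those cells. In TAM-like cells they summed to 51.67 to 389.5 CPM. The CAF-like sums also held 888.4 to 5830 CPM of the 10 melanoma markers, and of 730 CAF-like cells, 77 formed a subcluster led by melanoma genes. Another cluster of 242 cells was left out, 230 of them from Atf4wt/wt replicate 4. Of the cells kept by the filters, 192 carried a barcode found in 2 libraries.

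Across the 4 classes with values in at least 7 tumours, 8 of the 9 genes had their highest mean level in CAF-like cells, and Thbs1 in monocyte- or neutrophil-like cells. In every tumour, CAF-like cells exceeded the melanoma-like cells of the same tumour for all 9 genes, by a mean of 1.74 (Cyr61) to 9.66 (Tnc) on a log2(CPM + 1) scale. Levels are CPM of counts summed per tumour and class, given as mean ± SD over tumours. Since counts are tags at the 3′ end, they are compared between classes for each gene and not between genes. Cells were grouped by their expression, so these comparisons between classes are descriptions with no test.

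**Figure D1:**
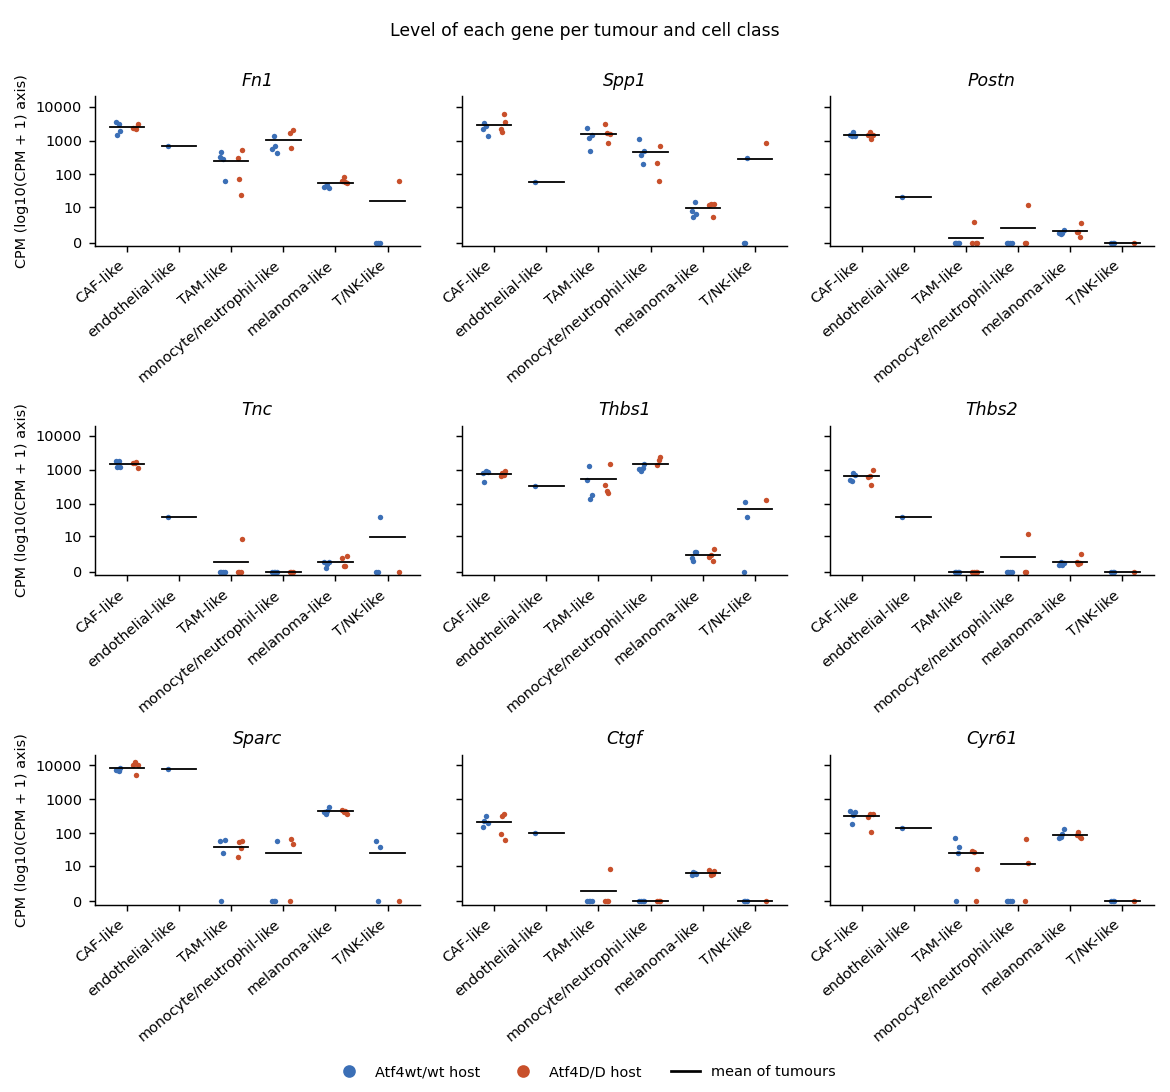
Level of each gene in the cell classes, as CPM on a log10(CPM + 1) axis, with 1 point per tumour with at least 10 cells of the class (1 tumour for endothelial-like cells) coloured by host genotype and the mean over tumours as a line. Postn, Tnc and Thbs2 stand far above the other classes in CAF-like cells, Spp1 and Thbs1 are also high in TAM-like cells, and Sparc, Fn1 and Cyr61 keep a level in melanoma-like cells.

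Fn1, the fibronectin gene, had 3400, 1478, 2977 and 1938 CPM in the CAF-like cells of Atf4wt/wt replicates 1 to 4 and 2265, 2366, 2184 and 3027 CPM in those of Atf4D/D replicates 1 to 4. The mean was 2454 ± 636 CPM (n = 8). Monocyte- or neutrophil-like cells came next with 1038 ± 628 CPM (n = 7), then TAM-like cells with 256.7 ± 186.9 CPM (n = 8) and melanoma-like cells with 54.58 ± 14.18 CPM (n = 8). CAF-like cells were above monocyte- or neutrophil-like cells in all 7 tumours, by 1.45 on the log2 scale, and these were above TAM-like cells in all 7. TAM-like and melanoma-like cells are neighbours in that order whose levels overlapped: TAM-like cells were higher in 6 of 8 tumours. By cells, 94.5% of CAF-like, 48.1% of monocyte- or neutrophil-like and 29.6% of melanoma-like cells held a Fn1 UMI (58.5%, 32.2% and 2.85% thinned to 500 UMIs per cell), against 2.299% of T/NK-like cells (1.15% thinned). The 36 endothelial-like cells, pooled, had 399.8 CPM with a 95% Poisson interval of 288.1 to 540.4. Of their 42 Fn1 UMIs, 35 came from the 16 such cells of Atf4wt/wt replicate 1. The Atf4D/D tumours, with 2 to 6 such cells each, held 0. Intervals here cover counting error only.

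Spp1, encoding osteopontin, a secreted ligand of integrins and CD44, had 2 main carriers. In CAF-like cells its levels were 2142, 3267, 2731 and 1349 CPM in Atf4wt/wt tumours and 2256, 1735, 5941 and 3433 CPM in Atf4D/D tumours. In TAM-like cells they were 2297, 1168, 490.8 and 1475 CPM in Atf4wt/wt tumours and 3157, 1647, 865.2 and 1532 CPM in Atf4D/D tumours. The classes overlapped, and CAF-like cells were the higher in 5 of 8 tumours. The means were 2857 ± 1436 and 1579 ± 835.4 CPM, against 454.5 ± 361.9 CPM in monocyte- or neutrophil-like cells (n = 7) and 9.283 ± 4.132 CPM in melanoma-like cells. By cells, 55.1% of TAM-like cells held a Spp1 UMI and 40.4% of CAF-like cells, although the TAM-like cells had fewer UMIs (median 2021 against 4581). With each cell thinned to 500 UMIs, these shares were 34.5% and 28.5%. The other immune classes were lower, with 13.1% of monocyte- or neutrophil-like (7.01% thinned, median 1100.5 UMIs), 8.05% of T/NK-like (5.75% thinned, median 760 UMIs) and 3.57% of dendritic cell-like cells (1.19% thinned, median 1318.5 UMIs).

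Postn and Tnc marked the fibroblasts. Postn, encoding periostin, which helps cross-link collagen, had 1436, 1320, 1783 and 1384 CPM in CAF-like cells of Atf4wt/wt tumours and 1439, 1803, 1092 and 1435 CPM in those of Atf4D/D tumours, a mean of 1462 ± 234.4 CPM. A single Postn UMI was found in 441 TAM-like cells, and melanoma-like cells had 1.131 ± 0.673 CPM. Tnc, encoding tenascin-C, a glycoprotein of wound and tumour matrix, had 1820, 1223, 1869 and 1254 CPM in Atf4wt/wt tumours and 1611, 1564, 1758 and 1098 CPM in Atf4D/D tumours. Its mean was 1525 ± 296.4 CPM in CAF-like cells and 0.917 ± 0.533 CPM in melanoma-like cells. The 214 monocyte- or neutrophil-like cells held 0 Tnc UMIs, which allows up to 11.75 CPM (3 counts).

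The 2 thrombospondin genes had unlike patterns. Thbs1, whose protein binds CD47 and CD36 and can activate latent TGF-β, was highest in monocyte- or neutrophil-like cells, with 1057, 939.9, 1149 and 1483 CPM in Atf4wt/wt tumours and 1425, 1955 and 2452 CPM in the 3 Atf4D/D tumours with at least 10 such cells. In all 7 tumours this exceeded the level in CAF-like cells, which averaged 761.8 ± 162.8 CPM (n = 8). TAM-like cells averaged 550.4 ± 533.1 CPM, from 137.8 to 1508 CPM, overlapped CAF-like cells and were below them in 6 of 8 tumours. A Thbs1 UMI was found in 55.6% of monocyte- or neutrophil-like cells (41.6% thinned) and in 3.45% of T/NK-like cells (1.15% thinned). Thbs2 was measured in CAF-like cells at 638.6 ± 207.9 CPM, from 370.2 to 1024 CPM, while 441 TAM-like cells held 0 Thbs2 UMIs, which allows up to 3.02 CPM. In melanoma-like cells the means were 2.13 CPM for Thbs1 and 0.998 CPM for Thbs2.

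Sparc was the gene with a high level in both fibroblasts and endothelium. It averaged 8333 ± 2233 CPM in CAF-like cells and 7568 CPM (95% Poisson interval 7051 to 8113) in the 36 pooled endothelial-like cells, all of which held a Sparc UMI. Melanoma-like cells averaged 445.8 ± 71.39 CPM, and 89.2% of them held a UMI (18.5% thinned to 500 UMIs), against 2.299% of T/NK-like cells (1.15% thinned). TAM-like cells had 39.05 ± 22.78 CPM and monocyte- or neutrophil-like cells 24.47 ± 30.9 CPM. Melanoma RNA present in TAM-like cells at its ratio to Dct, a pigment-cell gene, would amount to 35.2 CPM of Sparc, and the measured level was above that in 5 of 8 tumours. The same ratio gave 36.9 CPM for monocyte- or neutrophil-like cells, above their measured mean. The share of Sparc in these immune cells that came from melanoma RNA was not tested.

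The CCN genes had counts in CAF-like, endothelial-like and melanoma-like cells. Ctgf had 218.5 ± 113 CPM in CAF-like cells, from 63.34 to 370.2 CPM, 133.3 CPM (72.86 to 223.6) in pooled endothelial-like cells and 5.862 ± 0.814 CPM in melanoma-like cells. Cyr61 had 320.1 ± 116.7 CPM in CAF-like cells, 171.3 CPM (101.6 to 270.8) in pooled endothelial-like cells and 89.74 ± 22.01 CPM in melanoma-like cells, where 40.04% of cells held a UMI (4.69% thinned). Of the 9 genes, Cyr61 was the one whose CAF-like level stood least above the melanoma-like level, with within-tumour log2 differences from 0.54 to 2.67. Its promoter window, printed above, also held both a TATA box sequence and the TEAD letters. The named immune classes held at most 25 Cyr61 UMIs and 1 Ctgf UMI, both in TAM-like cells.

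To set the melanoma-like values beside fibroblast RNA, the level each gene would have there at its CAF-like ratio to Postn was computed per tumour. For Fn1 this was 1.98 CPM, or 3.62% of the measured 54.58 CPM. For Sparc it was 1.53%, for Cyr61 0.298% and for Ctgf 2.35% of the measured level. For Spp1 and Thbs1 it was 23.4% and 29.2%, for Thbs2 56.4% and for Tnc 120%. The measured level was above the ratio in 8 of 8 tumours for 7 genes, Thbs2 with 0.998 against 0.563 CPM, and in 1 of 8 for Tnc. Postn, as the reference, has no such value.

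Because melanoma-like cells made up 95.95% of the UMIs and CAF-like cells 1.52% (means of 8 tumours), a high level in CAF-like cells did not always mean that they carried most transcripts. CAF-like cells held 93.9 ± 5.41% of Tnc UMIs, 92.0 ± 7.28% of Postn UMIs and 83.0 ± 19.0% of Thbs2 UMIs. They held 63.9 ± 14.7% of Spp1 and 61.7 ± 14.2% of Thbs1 UMIs, with another 12.7% and 10.7% in TAM-like cells and 7.71% of Thbs1 in monocyte- or neutrophil-like cells. Of Fn1 UMIs, 62.2 ± 19.1% lay in melanoma-like cells and 34.5 ± 18.3% in CAF-like cells. Melanoma-like cells also held 71.0 ± 11.8% of Ctgf, 77.1 ± 15.5% of Sparc and 91.2 ± 5.25% of Cyr61 UMIs. The CAF-like share of Fn1 ran from 4.52% in the tumour with the fewest CAF-like cells to 66.2%.

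**Figure D2:**
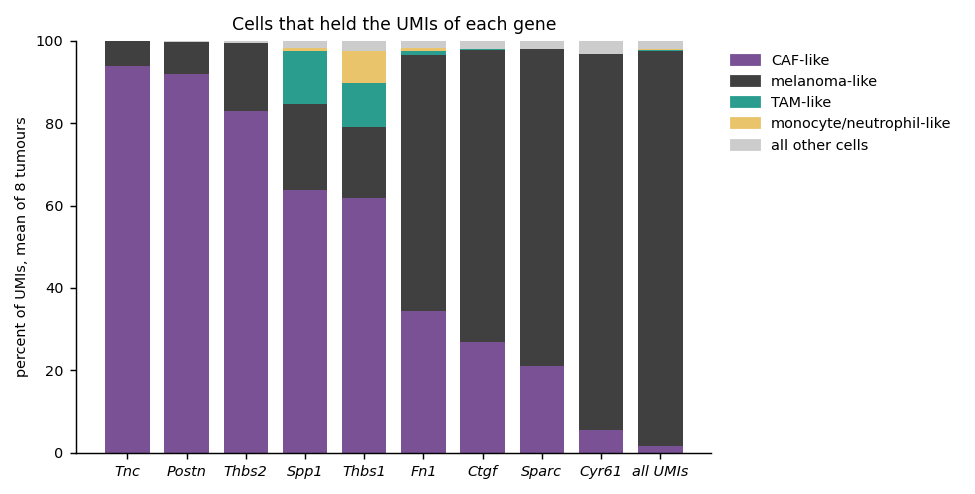
Share of each gene's UMIs in each cell class, in percent of all UMIs of that gene in the kept cells, as the mean over 8 tumours. The CAF-like share falls from 93.9% for Tnc to 5.50% for Cyr61, and the melanoma-like share of Cyr61 is 91.2%.

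The melanoma-like cells formed 10 states with at least 10 cells in each tumour, and each was compared with the other melanoma-like cells of its tumour. Fn1 was highest in a state of 807 cells led by S100a6 and Lgals3, which no marker list named. Its levels there were 207.4, 189.0, 176.9 and 142.8 CPM in Atf4wt/wt tumours and 185.1, 296.2, 279.7 and 255.4 CPM in Atf4D/D tumours, a mean of 216.6 ± 54.35 CPM. It exceeded the other melanoma-like cells in 8 of 8 tumours, by 2.10 on the log2 scale. The hypoxia-marked state (3536 cells) followed with 131.9 ± 43.81 CPM, also higher in 8 of 8 tumours (log2 1.51), and a G2/M-marked state led by Espn with 99.6 ± 30.63 CPM (8 of 8, log2 0.92). Espn and Selenbp1 were among the leading genes of both the hypoxia-marked and this G2/M-marked state. The lowest level was 18.39 ± 6.533 CPM in a state led by Kcnj13 and Trpm1, below the rest in all 8 tumours. These states differ in UMIs per cell, with medians from 8424.5 to 14820, but CPM are relative to the total.

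The other genes had other leading states. Spp1 was highest in the Kcnj13-led state, the one lowest in Fn1, at 24.93 ± 16.84 CPM and above the rest in 8 of 8 tumours (log2 1.44), and lowest in the S100a6-led state, the one highest in Fn1, at 2.866 ± 2.268 CPM from 16 UMIs. Sparc was highest in the state led by Fgf21 and Nupr1 (717.3 ± 125 CPM, 8 of 8, log2 0.84), which also led for Cyr61 (171.6 ± 41.99 CPM, 8 of 8, log2 1.17). Ctgf was highest in the hypoxia-marked state, at 19.36 ± 4.625 CPM against 4.113 CPM in the other melanoma-like cells (8 of 8, log2 1.97), and Cyr61 was also above the rest there in 8 of 8 tumours (147.5 CPM, log2 0.89). In the S-phase and other G2/M states, Fn1, Sparc and Cyr61 were below the rest in all 8 tumours. For Cyr61 the G2/M state led by Ube2c had the lowest mean, 40.95 CPM. Postn, Tnc, Thbs1 and Thbs2 are not described by state, as their melanoma-like levels were near 1 to 2 CPM.

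**Figure D3:**
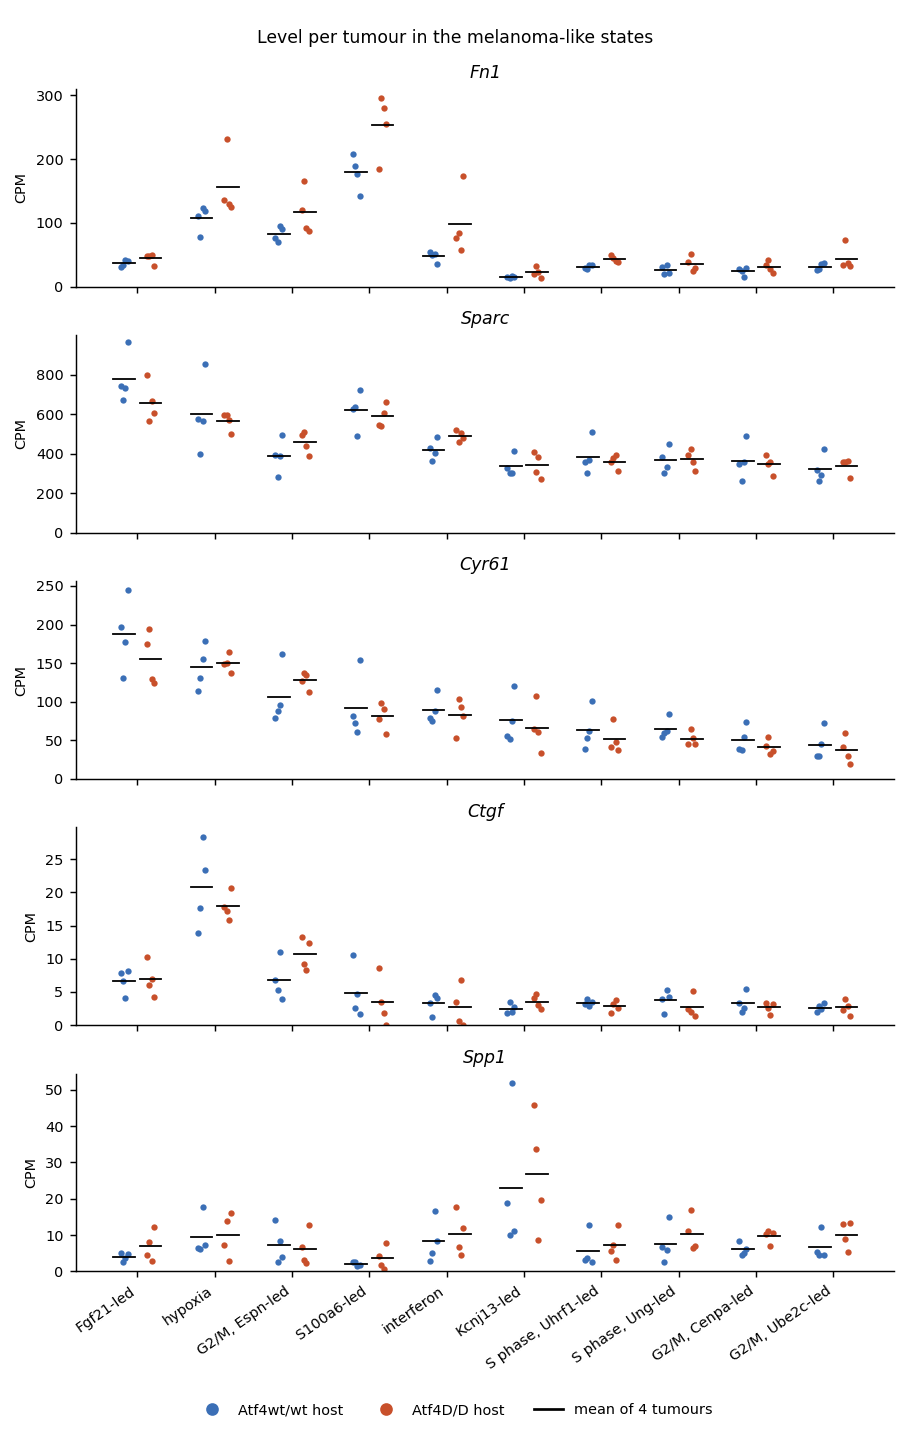
Level of Fn1, Sparc, Cyr61, Ctgf and Spp1 in each melanoma state, as CPM on a linear axis, with 1 point per tumour coloured by host genotype and the mean of the 4 tumours of a genotype as a line. Fn1 is highest in the S100a6-led state (mean of 8 tumours 216.6 CPM) and Spp1 in the Kcnj13-led state (24.93 CPM).

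CAF-like cells fell into 6 subclusters. A matrix-marked subcluster of 259 cells carried the highest Postn level, 2308 ± 310.1 CPM (n = 7 tumours), above the other CAF-like cells in 7 of 7 tumours. A hypoxia-marked subcluster of 183 cells carried the highest Spp1 level, with 1645 and 8221 CPM in 2 Atf4wt/wt tumours and 5587, 6508 and 12360 CPM in 3 Atf4D/D tumours. Its mean of 6864 ± 3905 CPM was above the matrix-marked cells in 4 of 5 tumours. The same 5 tumours had less Postn and less Sparc in the hypoxia-marked than in the matrix-marked cells in 5 of 5, by 0.95 and 0.91 on the log2 scale. Fn1 and Tnc differed less than their spread between these subclusters. The mean log2 differences were 0.21 (SD 0.93) and 0.16 (SD 0.49), higher in 3 of 5 tumours each.

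Smaller subclusters differed more. The perivascular-marked subcluster of 55 cells held 0 Spp1 UMIs, which allows up to 17.38 CPM, and Tnc, Thbs2 and Fn1 were below the other CAF-like cells in 3 of 3 tumours, at 121.1 ± 172.2, 55.34 ± 48.48 and 1008 ± 518.4 CPM. Its Sparc level was 9288 ± 963.2 CPM. The adventitial-marked subcluster of 76 cells, led by Cxcl13 and Pi16, had 57.49 ± 86.81 CPM of Spp1 and 322.6 ± 429.2 CPM of Tnc, below the rest in 4 of 4 tumours. It had the highest Cyr61 level, 654.7 ± 207.4 CPM, above the rest in 4 of 4, and the lowest Ctgf level, 40.6 ± 54.58 CPM. The 77 cells with melanoma markers, whose median of 12335 UMIs was the highest of the 6, had lower levels than the other CAF-like cells for all 9 genes in 4 of 4 tumours. Which subcluster was highest rests on the number of tumours: with at least 20 cells per sum, 4 of 9 genes kept the same one.

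**Figure D4:**
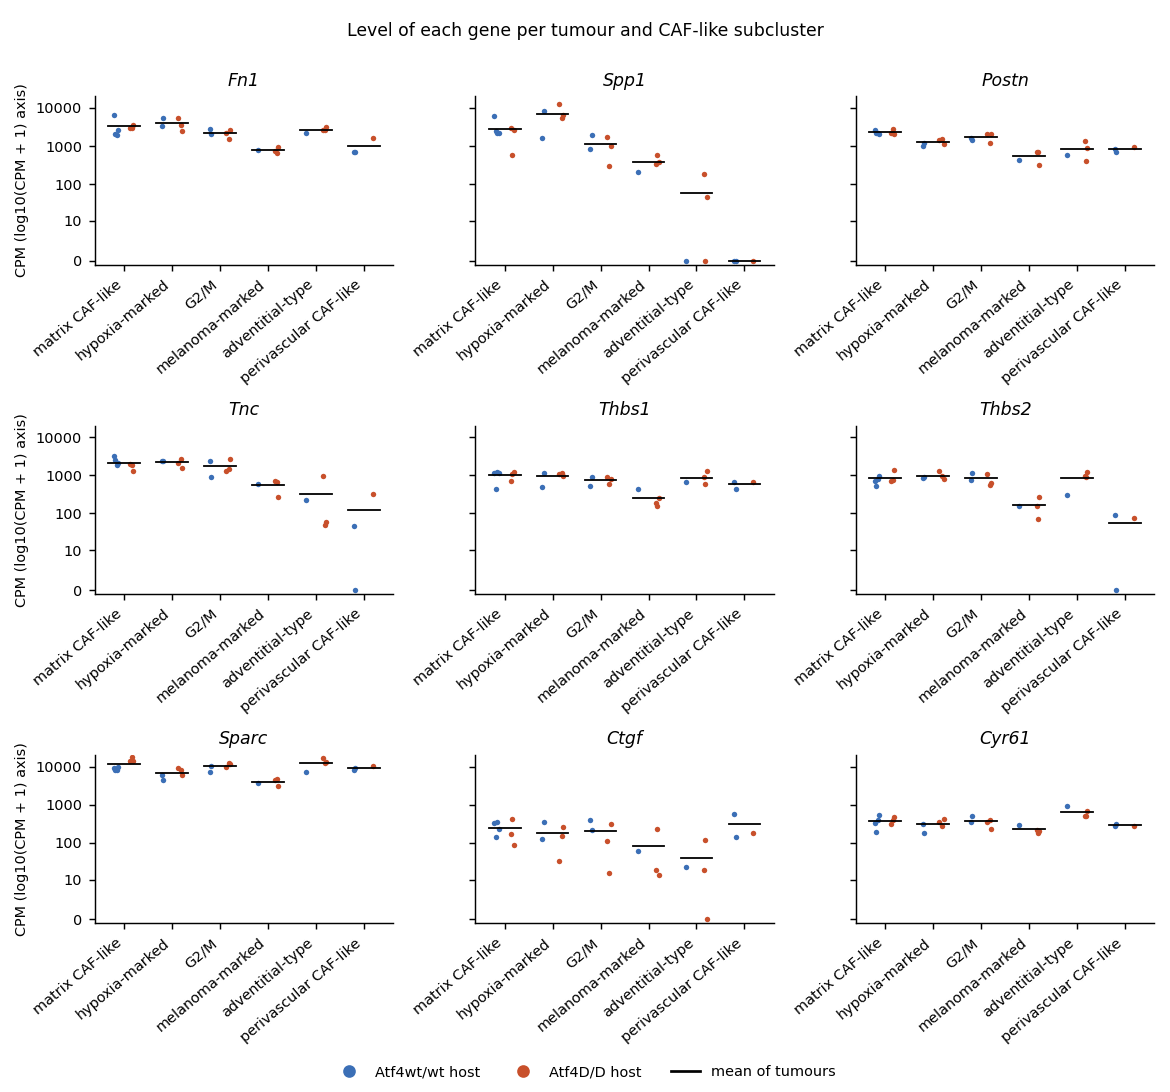
Level of each gene in the CAF-like subclusters, as CPM on a log10(CPM + 1) axis, with 1 point per tumour with at least 10 cells and the mean as a line. Spp1 is highest in the hypoxia-marked and lowest in the perivascular- and adventitial-marked cells, and Postn is highest in the matrix-marked cells.

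Among TAM-like cells, Thbs1 lay in the 188 cells led by Arg1 and Mmp12, at 1338 ± 896.1 CPM (n = 7 tumours), against 117.8 ± 123.3 CPM (n = 6) in the 173 cells led by Ms4a7, Ccl8 and Folr2. The difference had the same direction in 5 of 5 tumours, with a mean of 4.72 on the log2 scale (SD 3.03). Cycling TAM-like cells had 13.71 ± 16.34 CPM (n = 3), from 4 UMIs. Fn1 was at 525 ± 261.9 CPM in the Arg1-led and 121 ± 153.7 CPM in the Ms4a7-led cells, higher in the former in 4 of 5 tumours, and at 138.1 ± 170.9 CPM (n = 3) in the cycling cells. Spp1 was at 1964 ± 995.1 and 1517 ± 1125 CPM in the Arg1-led and Ms4a7-led cells, with the Arg1-led cells higher in 3 of 5 tumours.

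The genes whose pattern was most like that of 8 of the members were found by Pearson's r of log2(CPM + 1) over 161 sums of a class, state or subcluster in a tumour, among 8559 genes. Sums share tumours, libraries and, for subclusters, cells, so r is a description. Postn was most like Col6a3 (r = 0.982), Col5a2 and Prrx1, and Thbs2 most like Bicc1 (r = 0.977), Tmem45a and Dcn. Sparc was most like Fkbp10 (r = 0.909), Serpinh1 and Hspg2, of which the former encode collagen chaperones. Fn1 was most like Lrp1 (r = 0.868), Emp1 and Vim. Spp1 was most like Ptgs2 (r = 0.830), Arl4c and Ccl2, and Thbs1 most like Ifi204 (r = 0.922), Ccl2 and S100a6. Ctgf was most like the basement membrane genes Lamb1 (r = 0.877) and Col15a1 and like Col5a3, and Cyr61 most like Lama4 (r = 0.862), Adamts1 and Timp3.

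The comparison of hosts asked whether loss of Atf4 in the host changed these genes in each class. Atf4 itself was measured first. In CAF-like cells it was 288.4, 298.2, 330.7 and 292.8 CPM in Atf4wt/wt and 165.8, 108.9, 129.6 and 96.83 CPM in Atf4D/D tumours. It fell by 1.304 ± 0.197 on the log2 scale (SE; edgeR's quasi-likelihood test, Benjamini-Hochberg adjusted p = 0.037). In TAM-like cells it was 234.9 ± 97.34 against 73.08 ± 22.41 CPM, with no overlap (log2 −1.70 ± 0.36, edgeR adjusted p = 0.445). The injected melanoma cells were not deleted, and Atf4 in melanoma-like cells was 364.2 ± 70.35 against 371.4 ± 55.5 CPM. CAF-like sums held 1342 ± 569.4 and 987.2 ± 527.6 CPM of the pigment-cell gene Dct in the 2 genotypes. Melanoma-like cells had 6138 ± 555.1 and 5182 ± 554 CPM. The part of melanoma RNA in the Atf4 left in Atf4D/D CAF-like cells was not tested.

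None of the 9 genes passed the test in CAF-like cells. Of 4653 genes tested, 2 did, Atf4 and Cck, or 0.043%, and 6.45% had an unadjusted p under 0.05, against 1 of 9 members, Sparc. Sparc had 7110, 7003, 6959 and 8261 CPM in Atf4wt/wt tumours and 10090, 12110, 5201 and 9929 CPM in Atf4D/D tumours. The groups overlapped only through Atf4D/D replicate 3, the tumour with 10 CAF-like cells. The log2 fold change was 0.38 ± 0.15 (SE), with an adjusted p of 0.719 by edgeR's quasi-likelihood test. Leaving out each tumour in turn gave 0.23, without Atf4D/D replicate 2, to 0.51, without Atf4D/D replicate 3 (edgeR adjusted p = 0.185 to 0.9997). The matrix-marked subcluster alone was a setting chosen after the data were seen. Sparc was 8789 ± 717.8 CPM there in 4 Atf4wt/wt and 15490 ± 2279 CPM in 3 Atf4D/D tumours. It passed the test (log2 0.70 ± 0.12, edgeR adjusted p = 0.0194). In that subcluster 16 of 1918 genes tested passed, or 0.834%. Atf4D/D replicate 3, through which the groups overlapped above, had 5 such cells, under the limit of 10, and was not in this fit. Those 5 cells held 191 Sparc UMIs of 21513 UMIs. The call thus covers only the 3 Atf4D/D tumours in the fit, at 14040 to 18110 CPM, against 8110 to 9523 CPM in Atf4wt/wt tumours.

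The other 8 members gave no call in CAF-like cells. Spp1 had the largest difference, with a log2 fold change of 0.58 ± 0.38 (SE; edgeR adjusted p = 0.901) and groups that overlapped, 2372 ± 822.3 against 3341 ± 1873 CPM. That value rested on the 10 cells of Atf4D/D replicate 3: without this tumour Spp1 was at 0.022 ± 0.27, below Sparc and nearer 0 than Ctgf (−0.59). Fn1, Postn, Tnc, Thbs1 and Thbs2 differed by 0.01 to 0.17 on the log2 scale, each with an SE of 0.15 to 0.23. Ctgf was at −0.37 ± 0.50 and Cyr61 at −0.15 ± 0.25. The median of the 9 members was 0.06, against −0.01 over all genes tested. Of the CAF-like cells, 17.9% were hypoxia-marked in Atf4wt/wt and 29.5% in Atf4D/D tumours (exact two-sided permutation test, p = 0.0857, adjusted over 19 subclusters and states p = 0.814). Hypoxia-marked cells had the highest mean Spp1 level of the subclusters. In Atf4D/D replicate 3, 285 of the 321 Spp1 UMIs of CAF-like cells lay in matrix-marked cells. The part of the hypoxia-marked share in the Spp1 difference was not tested.

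In melanoma-like cells Fn1 was the only member with an unadjusted p under 0.05 (edgeR), and 1 of 9 is near the share of all genes given below. It had 43.34, 43.95, 47.02 and 39.05 CPM in Atf4wt/wt tumours and 65.06, 81.61, 59.42 and 57.22 CPM in Atf4D/D tumours, from 5482 and 8552 UMIs. Every Atf4D/D tumour was above every Atf4wt/wt tumour. The share of all genes tested that separate in this way was not counted. The log2 fold change was 0.61 ± 0.11 (SE), with an adjusted p of 0.11 by edgeR's quasi-likelihood test, so that Fn1 did not pass. Of 12554 genes tested, 4 passed, or 0.0319%, and 11.3% had an unadjusted p under 0.05, against 1 of 9 members, Fn1. With DESeq2, which called 120 genes or 0.906%, Fn1 passed (adjusted p = 0.000181), and it also passed in edgeR without the expression filter (adjusted p = 0.0108), where 0.226% of genes were called. Leaving out each tumour in turn gave log2 values from 0.48 to 0.67, and Fn1 passed in none of these fits. Nor did it pass in the remaining edgeR settings for this class, replicate number and sex as covariates among them.

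The Fn1 difference had the same sign in all 10 melanoma states, from 0.31 in the Fgf21-led state to 0.94 in the interferon-marked state on the log2 scale, and edgeR adjusted p-values were 0.095 to 0.689. All these states were cut from the same tumours, so their agreement is not independent. The groups did not overlap in 3 of the 10, the hypoxia-marked, 1 S-phase and the interferon-marked state. In that order, the highest Atf4wt/wt values were 123.3, 34.39 and 54.7 CPM. The lowest Atf4D/D values were 124.9, 38.89 and 56.59 CPM. The share of all genes without overlap was not counted there either. In the hypoxia-marked state Fn1 was 108 ± 20.35 against 155.7 ± 50.52 CPM. Fibroblast RNA moved in the same direction: the 12 fibroblast markers summed to 8.95 to 18.9 CPM in melanoma-like cells of Atf4wt/wt and 6.32 to 53.9 CPM in those of Atf4D/D tumours. At the CAF-like ratio to Postn, that RNA amounts to 1.55 and 2.41 CPM of Fn1 in the 2 groups. The share of melanoma-like cells in the hypoxia-marked state was 12.8% and 17.1%, and that in the S100a6-led state 2.89% and 4.01%. The part of these shares in the Fn1 difference of the summed cells was not tested.

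The other members with a level in melanoma-like cells differed less. Sparc had 457.8 ± 97.5 and 433.8 ± 44.71 CPM (log2 −0.08 ± 0.13), Cyr61 94.3 ± 28.63 and 85.18 ± 15.99 CPM (log2 −0.14 ± 0.19) and Ctgf 5.611 ± 0.541 and 6.114 ± 1.042 CPM (log2 0.13 ± 0.14). Spp1 had 8.172 ± 4.559 and 10.39 ± 3.97 CPM. All overlapped between the genotypes, with edgeR adjusted p-values from 0.757 to 0.863. The median of the 9 members was 0.36 on the log2 scale, against −0.0047 over all genes tested. It includes Postn, Tnc, Thbs1 and Thbs2, whose mean levels were only 0.917 to 2.13 CPM. The 12 fibroblast markers summed to 13.37 ± 4.282 CPM in these cells in Atf4wt/wt and 29.5 ± 19.92 CPM in Atf4D/D tumours. The part of fibroblast RNA in this median was not tested.

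Only 3 members could be tested in TAM-like cells, Fn1, Spp1 and Thbs1, as the other 6 had too few UMIs. None passed, nor did any of the 1530 genes tested (0%, with 5.1% at an unadjusted p under 0.05 and 0 of the 3 members). Fn1 was 283.1 ± 162.7 and 230.2 ± 230.6 CPM (log2 −0.35 ± 0.71), Spp1 1358 ± 749.3 and 1800 ± 967.8 CPM (log2 0.27 ± 0.43), and Thbs1 522.4 ± 522.2 and 578.3 ± 623.2 CPM (log2 0.16 ± 0.78). The standard errors allow differences of more than a log2 unit for Fn1 and Thbs1 at this depth, with 16 to 139 TAM-like cells per tumour.

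The interaction of genotype and class asked whether the difference between hosts was itself different in CAF-like and melanoma-like cells. Of 4452 genes expressed in both, 0% passed and 5.91% had an unadjusted p under 0.05, against 2 of the 9 members, Fn1 and Sparc. For Fn1 the CAF-like difference was lower than the melanoma-like one by a log2 of −0.51 ± 0.23 (SE; edgeR adjusted p = 0.836). For Sparc it was higher by 0.40 ± 0.17 (edgeR adjusted p = 0.821). Neither passed, so the Fn1 difference is not shown to be particular to melanoma-like cells.

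**Figure D5:**
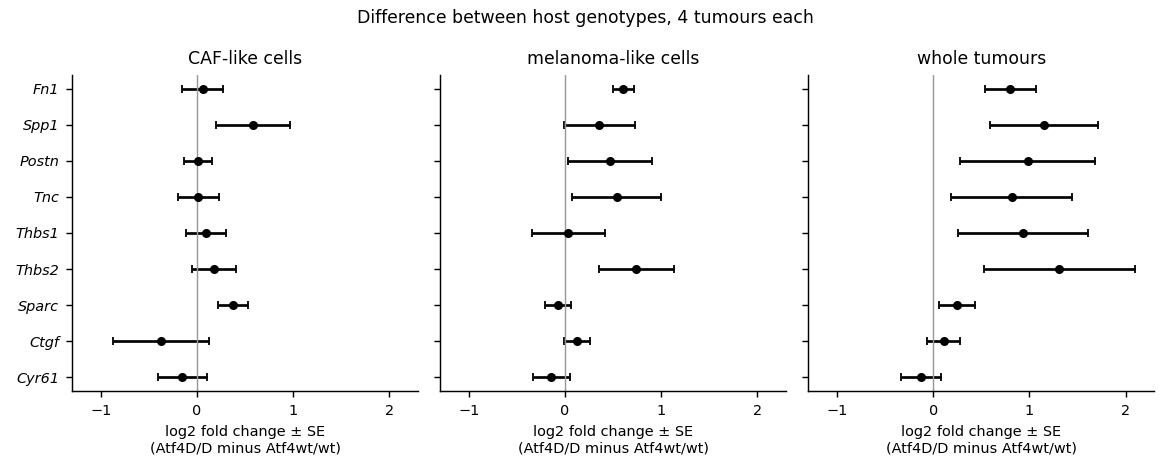
Log2 fold change between Atf4D/D and Atf4wt/wt tumours for each gene in CAF-like and melanoma-like cells and in whole tumours, with bars of 1 SE. Fn1 in melanoma-like cells lies at 0.61 ± 0.11, CAF-like values other than Spp1, Sparc and Ctgf lie near 0, and whole-tumour values of Spp1, Postn, Tnc, Thbs1 and Thbs2 lie between 0.81 and 1.31 with wide bars.

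Summed over all kept cells of a tumour, 8 of 9 members were higher in Atf4D/D tumours, against 50.11% of all genes tested, and none passed the test. Thbs2 had the largest value, 1.31 ± 0.78 (SE) on the log2 scale, followed by Spp1 (1.15 ± 0.56), Postn (0.98 ± 0.71), Thbs1 (0.93 ± 0.68), Tnc (0.81 ± 0.63) and Fn1 (0.80 ± 0.27). These values moved with Atf4D/D replicate 4, the tumour with the most CAF-like cells. Without it Thbs2 was at 0.29, Spp1 at 0.50, Postn at 0.41, Thbs1 at 0.096, Tnc at 0.44 and Fn1 at 0.52, and without Atf4D/D replicate 3 Thbs2 was at 1.70 and Spp1 at 1.49. Fn1 had 67.48, 55.95, 82.79 and 64.34 CPM in Atf4wt/wt and 117, 110.1, 63.24 and 179.7 CPM in Atf4D/D tumours (edgeR adjusted p = 0.408). It overlapped through Atf4D/D replicate 3. The median of the 9 members was 0.81, against 0.00038 over all 13117 genes tested. Of these 0% passed and 10.5% had an unadjusted p under 0.05, against 1 of 9 members, Fn1. In such sums, more cells of a class and more RNA per cell cannot be told apart. CAF-like cells made up 1.88% of the cells and 0.954% of the UMIs in Atf4wt/wt tumours, and 3.58% and 2.09% in Atf4D/D tumours, where the share of cells ran from 0.27% in replicate 3 to 7.05% in replicate 4. Without replicate 4 the Atf4D/D means were 2.42% of cells and 1.34% of UMIs. The part of these shares in the whole-tumour differences was not tested. Within CAF-like cells, Postn, Tnc and Thbs2 differed by 0.01, 0.01 and 0.17.

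The 4 lists of related genes were read alongside, and none of their genes passed the test in any class. Over all genes tested, the share with a higher estimate in Atf4D/D tumours was 47.93% in CAF-like cells. It was 48.65% in melanoma-like cells and 50.11% in whole tumours. Receptors of these proteins, integrins, syndecans, CD44, CD36 and CD47 among them, had 10 of 18 genes tested in CAF-like cells, of which 8 had a higher estimate in Atf4D/D tumours (median 0.11). Itgb3, an integrin chain for osteopontin and fibronectin, was 25 ± 12.18 and 50.18 ± 16.19 CPM (edgeR adjusted p = 0.756). In melanoma-like cells 6 of 14 receptors had a higher estimate (median −0.03). Cd44, a receptor of osteopontin, was 191.5 ± 15.63 and 213.1 ± 9.109 CPM there (edgeR adjusted p = 0.412).

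Of 28 other matricellular genes, 16 could be tested in CAF-like cells, and 11 had a higher estimate (median 0.27). Fbln2, encoding fibulin-2, was 953.5 ± 278.5 and 1364 ± 420.9 CPM (edgeR adjusted p = 0.691), Ecm1 139.9 ± 73.72 and 212.4 ± 108.1 CPM, and Wisp1, another CCN gene, 120 ± 13.94 and 95.09 ± 24.42 CPM (edgeR adjusted p = 0.712). In melanoma-like cells 7 of 14 had a higher estimate (median 0.02), and Sparcl1, a relative of Sparc, was 146 ± 15.76 and 185 ± 6.671 CPM (log2 0.34 ± 0.08, edgeR adjusted p = 0.199), in contrast to Sparc itself with −0.08.

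Of 20 YAP and TEAD targets other than Ctgf and Cyr61, 10 were tested in CAF-like cells and 8 had a higher estimate (median 0.11), while Ctgf and Cyr61 had lower estimates. In melanoma-like cells 8 of 15 had a higher estimate (median 0.002). Axl, a receptor tyrosine kinase, was 2.515 ± 0.767 and 1.314 ± 0.288 CPM (log2 −0.93 ± 0.25, edgeR adjusted p = 0.256).

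Genes whose products are deposited with or processed on fibronectin had 9 of 10 tested in CAF-like cells, 8 with a higher estimate (median 0.32). Bmp1, encoding a procollagen protease, was 244.2 ± 31.08 and 337.3 ± 68.78 CPM (log2 0.53 ± 0.16, edgeR adjusted p = 0.529), and Col1a1 8073 ± 1070 and 10400 ± 3516 CPM (edgeR adjusted p = 0.736). In melanoma-like cells 4 of 7 had a higher estimate, with a median of 1.30. Col1a1, itself a fibroblast gene, was at 2.238 ± 0.881 and 6.317 ± 4.873 CPM there. The 12 fibroblast markers summed to 13.37 ± 4.282 and 29.5 ± 19.92 CPM in the same cells. Col1a1, Col1a2, Col3a1 and Col5a1 are in both lists, so the marker sum is not a separate measure. The part of fibroblast RNA in the list's values was not tested. Summed over whole tumours, all 10 had a higher estimate (median 1.19). In TAM-like cells 7 receptors, 2 other matricellular genes, 0 YAP and TEAD targets and 1 fibronectin partner could be tested.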

How the data were processed

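Dissociated tumours were run on the 10x Genomics droplet platform with 3′ libraries, 1 per tumour. The deposited UMI counts per gene and barcode are raw. The authors' processing, in the submitters' notes, names Cell Ranger 3.1.0, Seurat 3.2.1 and GRCm38. Labels name the V3 kit and the published methods V2. The 9 genes and all lists were chosen with earlier results of these data known. Barcodes needed 200 to 5000 genes and no more than 7.5% mitochondrial UMIs. In Seurat 5.3.0 (R 4.3.3), each cell was scaled to 10000 UMIs, the genotypes were integrated on 2000 variable genes less the 9 members, and 20 principal components were clustered at a resolution of 0.7 into 16 clusters, the CAF-like and immune cells again at 0.5 and 0.6. Classes were named from fixed markers by thresholds set after the data were seen, with melanoma-like clusters holding all 10 melanoma markers in most cells and 2 of 3 TAM-like subclusters named against non-immune cells, so they may divide cells differently from the study. The cluster highest in mitochondrial share was left out. No doublet caller was run.

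Sums per tumour were made for each class with at least 10 cells, giving 40826 to 1473702 UMIs for CAF-like, 23602 to 352636 for TAM-like and 24168624 to 49020915 for melanoma-like cells. Sums were tested with edgeR 4.0.16 (expression filter, TMM, quasi-likelihood, Benjamini-Hochberg over all genes tested, threshold 0.05), and DESeq2 1.42.0 was an alternative. CPM follow TMM within each class. Log2 differences within a tumour used a pseudocount of 1 CPM. Scripts were tested on simulated data. Replicates differed by more than counting noise, with a chi-square per gene of 11.5 to 45.6. Replicate numbers were not taken as pairs. Besides the 9 members and Atf4, the text names the genes of each list that pass or have the smallest p (up to 3 per comparison), and the 3 genes most like each member in pattern (those for Tnc are not reported here). Leading genes only identify clusters.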

Additional observations from a re-analysis of the deposited data

Results flagged for a closer look

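A sample far from the others of its group was found in 4 of 52 groups of 4 tumours, where chance gives about 1 in 20. Thbs1 in CAF-like cells was 425.3 CPM in Atf4wt/wt replicate 2, against 825.4 to 896.7 CPM in the other Atf4wt/wt tumours. Sparc in CAF-like cells was 8261 CPM in Atf4wt/wt replicate 4, against 6959 to 7110 CPM in the others. Thbs1 in TAM-like cells was 1508 CPM in Atf4D/D replicate 4, against 210.5 to 363.5 CPM. Ctgf summed over the whole tumour was 6.157 CPM in Atf4D/D replicate 3, the tumour with 10 CAF-like cells, against 8.846 to 9.253 CPM. No cause was tested for any of them.

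The cluster of 242 cells that entered no comparison, 230 of them from Atf4wt/wt replicate 4, held transcripts of 8 members above the limit of 3 counts. Pooled over its cells, Sparc was at 396.2 CPM (95% Poisson interval 360.5 to 434.4), Cyr61 at 97.95 CPM (80.65 to 117.9) and Fn1 at 41.1 CPM (30.2 to 54.66). Spp1 was at 19.24 CPM, Thbs1 at 11.37 CPM, Tnc at 9.62 CPM, Postn at 5.247 CPM and Thbs2 at 3.498 CPM, each from 4 to 22 UMIs. Nearly all of these cells came from 1 tumour, so they give no value between genotypes.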

How the results depend on the processing

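No member passed the test in CAF-like cells, TAM-like cells or whole tumours under the other settings for whole classes, 8 of 9 members were highest in CAF-like cells under each setting for levels, and the 5 members described by melanoma state kept their highest state. Counts of all genes called moved more. In CAF-like cells, 2 genes were called, against 101 without the expression filter, 0 with the replicate block, 0 with sex as a covariate, 0 with the members kept in the clustering, 1 without the melanoma-marked cells, 16 in the matrix-marked subcluster alone (added after seeing the data) and 0 to 2 leaving out each tumour in turn. In melanoma-like cells 4 became 46 without the filter, 120 with DESeq2, 0 with the replicate block, 0 with sex and 0 to 21 leaving out each tumour, the 21 without Atf4D/D replicate 3. TAM-like cells had 0, against 10 without the filter and 0 to 1 leaving out a tumour. Whole tumours had 0, against 100 with DESeq2 and 0 to 2 leaving out a tumour, and the interaction 0, against 82 without the filter and 0 to 2. With at least 20 cells per sum, 4 of 9 members kept their highest CAF-like subcluster. The cause of these changes was not tested.

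Reversed values are given on the log2 scale, in CAF-like cells unless stated. Not all lay near 0, as with Spp1 and Tnc in the matrix-marked subcluster, the largest with 259 cells. Without the filter Postn was −0.022 and Tnc −0.046, and with DESeq2 Fn1 was −0.0013, Postn −0.037 and Tnc −0.054. With sex, Fn1 was −0.026, Postn −0.030 and Tnc −0.027. With the members kept in the clustering Postn was −0.010 and Tnc −0.022, with at least 20 cells Tnc was −0.15, and without the melanoma-marked cells Postn was −0.021 and Tnc −0.075. In the matrix-marked subcluster alone Fn1 was −0.21, Spp1 −0.75, Postn −0.082, Tnc −0.65, Thbs1 −0.064 and Cyr61 0.015. Leaving out each tumour in turn gave −0.12 to 0.24 for Fn1, −0.11 to 0.11 for Postn, −0.15 to 0.17 for Tnc, −0.10 to 0.20 for Thbs1, −0.10 to 0.33 for Thbs2 and −1.07 to 0.12 for Ctgf. The same ranges were −0.17 to 0.082 for Sparc and −0.27 to 0.080 for Cyr61 in melanoma-like cells, −1.19 to 0.038 for Fn1, −0.15 to 0.65 for Spp1 and −0.93 to 1.04 for Thbs1 in TAM-like cells, and −0.015 to 0.23 for Ctgf and −0.26 to 0.12 for Cyr61 in whole tumours.

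The replicate numbers pair no samples in the labels, and same-numbered tumours deviated with correlations of −0.415 to 0.199. With the replicate block, Thbs1 in TAM-like cells was −0.043, and the block changed no call of a member. Depth limits CAF-like and TAM-like cells: 4653 and 1530 genes were tested there, against 12554 in melanoma-like cells.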
